A study of Mus musculus with 6 samples.

Results

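The genes described here are 10 components of planar cell polarity and noncanonical Wnt signalling, followed in primary mouse keratinocytes with and without deletion of iASPP. *Kif26b* was chosen for its fall in the iASPP KO cells, the largest among genes called lower in KO that fell in every batch. *Wnt5a* and *Ror2* were added as its known pathway partners, and *Fzd3*, *Fzd6*, *Vangl1*, *Vangl2*, *Celsr1*, *Celsr2* and *Prickle1* as planar polarity genes. All 10 are among the 55367 gene names counted and all 10 passed the filter on low counts, which left 14916 genes. Because *Kif26b* was picked on the KO against WT contrast, its fold change is a description with no test.

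Primary keratinocytes are epidermal cells grown directly from skin without immortalization. They came from day 2 pups of a mixed C57BL/6 and 129/Sv background, with loxP sites flanking exon 8 of both copies of *Ppp1r13l*, which encodes iASPP, and a Cre-ERT recombinase at the ROSA26 locus that tamoxifen activates. That locus is broadly active, so recombination would not be limited to keratinocytes in a mixed culture. In each of 3 labelled batches, 1 culture received tamoxifen (iASPP KO) and 1 did not (iASPP WT), which gave 3 libraries per group, and WT cells carried the same alleles and the same Cre. Per the study's methods, all cultures grew in low-calcium medium, which was changed after 24 h to medium that did or did not hold the drug. The drug concentration is 1 μM in the study's methods and 1 mM in the labels. Since no WT culture received the drug, the drug and the deletion cannot be told apart. The sources used here do not say whether a batch is 1 pup, a pool or a day, so p-values cover the spread between these cultures.

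Planar cell polarity is the alignment of cells within the plane of a sheet, and in skin it orients the hair follicles. A core set of membrane proteins sets it up: the Celsr cadherins link neighbouring cells, Frizzled receptors gather on one side of a cell and Vangl with Prickle on the other. Wnt5a, a secreted noncanonical Wnt ligand, acts through Ror receptor tyrosine kinases, and signalling through this route lowers the stability of the Kif26b protein, an atypical kinesin that takes part in cell adhesion and migration. RNA levels do not show protein localization or protein stability.

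Each library held 20202517 to 25157117 counts, and levels are given as CPM, counts scaled to a library of 1000000. The targeted gene *Ppp1r13l* was lower in the KO library of every batch, with log2 fold changes of -1.19, -1.34 and -1.82. Markers of basal keratinocytes summed to 22869 to 27418 CPM in the libraries and none of the 7 passed the KO against WT test. Batch 3 stood apart in both of its libraries. Fibroblast markers summed to 504 CPM in KO and 734 CPM in WT there, and to 55.1 to 76.6 CPM in the 4 other libraries. The suprabasal list summed to 951 and 851 CPM in batch 3 KO and WT, against 2289 to 2876 CPM elsewhere. Melanocyte markers were low in batch 2, at 394 CPM in KO and 340 CPM in WT, and lay between 852 and 1082 CPM in the other libraries.

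In the KO cells, *Kif26b* RNA stood at 21.0% of the WT level, a description without a test. Of the 9 other members, only *Vangl1*, a membrane protein of the core polarity set, passed the threshold, at 63.9% of WT. No member passed as higher. *Fzd6*, *Celsr1* and *Vangl2* were lower in KO within each of the 3 batches without passing the test, while *Wnt5a*, *Fzd3*, *Prickle1*, *Celsr2* and *Ror2* differed in sign from batch to batch. The test was edgeR's quasi-likelihood test with batch and condition in the model, at an adjusted p under 0.05 over all genes. *Kif26b* was lower by choice, so counts are given for the 9 others: the test called 1 of them lower in KO and 0 higher, and over all genes it called 1.95% lower and 2.17% higher. Of the 9, 4 were lower within every batch, as were 19.7% of all genes, and 0 were higher in every batch, against 19.5%. The median log2 fold change was -0.33 over the 9 and 0.01 over all genes tested. Every KO library was below every WT library for 2 of the 9, *Vangl1* and *Fzd6*, and for 5.46% of all genes, while 0 had all KO libraries above WT, against 5.26%. Without batch 3, *Vangl1*, *Fzd6* and *Celsr1* passed as lower, 3 of the 9, as did 4.34% of all genes. Without batch 1 only *Vangl1* of the 9 passed as lower, as did 0.978% of all genes. Without batch 2 none of the 9 passed as lower, against 0.768% of all genes. With condition alone in the edgeR model, 0 genes passed higher and 0 lower, and 4.63% of genes had an unadjusted p under 0.05. In these bulk samples, fewer cells of a type and less RNA per cell cannot be told apart.

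**Figure D1:**
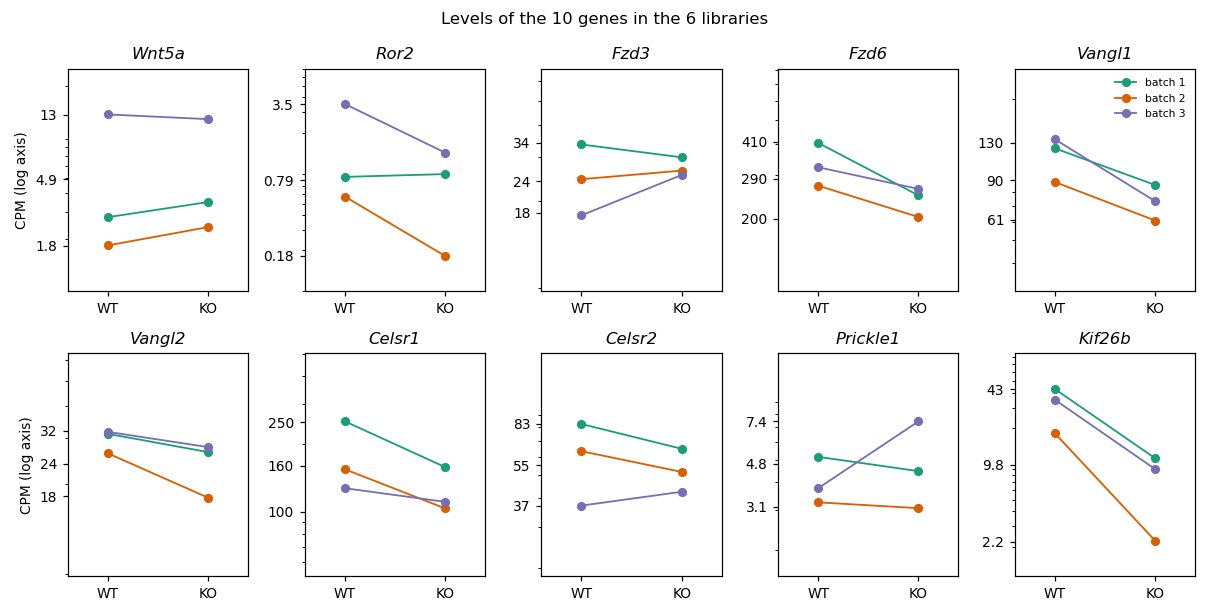
Level of each of the 10 genes in CPM (log axis, scaled to each gene) in the WT and KO library of each batch, joined by a line per batch. All 3 KO libraries lie below all 3 WT libraries for *Kif26b*, *Vangl1* and *Fzd6*, and the batch 3 libraries lie far above the others for *Wnt5a*.

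The ligand *Wnt5a* (ENSMUSG00000021994.15, chr14:28504750-28527448, plus strand, GRCm38) gave 3.47, 2.38 and 12.2 CPM in KO batches 1, 2 and 3. In WT it gave 2.76, 1.80 and 13.1 CPM. Both batch 3 libraries were high, and the groups overlapped. KO against WT had a log2 fold change of 0.19 ± 0.30 (SE, n = 3 per group; edgeR adjusted p = 0.822).

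The receptor *Ror2* (ENSMUSG00000021464.14, chr13:53109312-53286124, minus strand) was the least abundant member, with 4 to 79 counts per library. It gave 0.891, 0.180 and 1.36 CPM in KO and 0.843, 0.574 and 3.52 CPM in WT. The highest level was in the batch 3 WT library, and the groups overlapped. KO was lower in batches 2 and 3, with log2 differences of -1.31 and -1.32, and about level in batch 1, at 0.07. The fitted log2 fold change was -0.95 ± 0.79 (SE, n = 3; edgeR adjusted p = 0.633). The related receptor *Ror1*, not a member, gave 2.63, 3.86 and 2.25 CPM in KO and 5.11, 8.49 and 5.30 CPM in WT. For *Ror1* every KO library was below every WT library, without passing the test (log2 fold change -1.11 ± 0.33; edgeR adjusted p = 0.107).

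*Fzd6* (ENSMUSG00000022297.15, chr15:39006034-39038188, plus strand), a Frizzled receptor needed for hair orientation in mouse skin, was the most abundant member. Its levels were 248, 203 and 264 CPM in KO and 405, 272 and 323 CPM in WT. Every KO library was below every WT library. The log2 fold change of -0.47 ± 0.12 (SE, n = 3) missed the threshold, with an edgeR adjusted p of 0.0560, and KO was lower in 3 of 3 batches. It passed in 7 of 10 alternative settings, over a range of adjusted p from 1.66e-04 to 0.973. Among the passing settings were DESeq2 (adjusted p = 0.00642) and the edgeR fit without batch 3 (1.66e-04). It did not pass without batch 1 (edgeR adjusted p = 0.383) or without batch 2 (0.225).

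*Fzd3* (ENSMUSG00000007989.7, chr14:65192449-65262463, minus strand), the related receptor that guides axons in the nervous system, showed no such pattern. It gave 29.8, 26.4 and 25.4 CPM in KO and 33.5, 24.4 and 17.5 CPM in WT. The KO libraries lay close together within the wider spread of the WT libraries. KO and WT differed by a log2 fold change of 0.16 ± 0.18 (SE, n = 3; edgeR adjusted p = 0.744), and it was -0.029 without batch 3.

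*Vangl1* (ENSMUSG00000027860.15, chr3:102153583-102204693, minus strand), 1 of the pair of mammalian Van Gogh proteins, gave 85.8, 60.6 and 73.3 CPM in KO. In WT it gave 123, 88.3 and 134 CPM. Each KO library was below all WT libraries, with log2 differences of -0.52, -0.54 and -0.87 in batches 1, 2 and 3. The fitted log2 fold change was -0.65 ± 0.12 (SE, n = 3; edgeR adjusted p = 0.0191). The call was lost without batch 2 (log2 fold change -0.69, adjusted p = 0.0784) and without the batch term (adjusted p = 0.973), and it held in the other 8 of 10 alternatives.

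Its paralog *Vangl2* (ENSMUSG00000026556.15, chr1:172000960-172028444, minus strand), mutated in the loop-tail mouse, gave 26.5, 17.7 and 27.7 CPM in KO and 31.2, 26.3 and 31.8 CPM in WT. KO was lower in each batch, by log2 differences of -0.23, -0.56 and -0.19, but the groups overlapped. The log2 fold change was -0.33 ± 0.16 (SE, n = 3; edgeR adjusted p = 0.337), and no alternative brought it past the threshold.

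*Celsr1* (ENSMUSG00000016028.10, chr15:85898929-86034203, minus strand), the seven-pass cadherin that carries polarity between epidermal cells, gave 158, 104 and 111 CPM in KO. In WT it gave 252, 155 and 128 CPM. The batch 1 KO library lay above 2 of the WT libraries, although KO was lower within each batch, by log2 differences of -0.67, -0.58 and -0.20. The log2 fold change of -0.48 ± 0.13 (SE, n = 3) missed the threshold, with an edgeR adjusted p of 0.0634. It passed in 5 of 10 alternatives, over adjusted p-values from 3.44e-05, without batch 3, to 0.973. It did not pass without batch 1 (edgeR adjusted p = 0.356) or without batch 2 (0.328).

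*Celsr2* (ENSMUSG00000068740.13, chr3:108390851-108415552, minus strand), known mainly from neurons and ependymal cilia, gave 64.8, 51.6 and 42.4 CPM in KO and 82.6, 63.2 and 37.1 CPM in WT. KO was lower in batches 1 and 2 and higher in batch 3. This gave a log2 fold change of -0.15 ± 0.14 (SE, n = 3; edgeR adjusted p = 0.678).

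*Prickle1* (ENSMUSG00000036158.12, chr15:93499114-93595891, minus strand), the cytoplasmic partner of the Vangl proteins, gave 4.45, 3.05 and 7.39 CPM in KO and 5.15, 3.24 and 3.74 CPM in WT. The batch 3 KO library was the highest and the groups overlapped. Its log2 fold change was 0.23 ± 0.38 (SE, n = 3; edgeR adjusted p = 0.829), with a value of -0.15 once batch 3 was left out.

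*Kif26b* (ENSMUSG00000026494.12, chr1:178529125-178939200, plus strand) gave 251, 50 and 213 counts in KO batches 1, 2 and 3 and 919, 443 and 784 counts in WT. These were 11.2, 2.24 and 9.05 CPM in KO and 43.1, 18.2 and 34.9 CPM in WT. The highest KO library was below the lowest WT library, and batch 2 was the lowest in both groups. The log2 fold change was -2.25 ± 0.24 (SE, n = 3), a level 4.77-fold higher in WT. Within batches 1, 2 and 3 it was -1.94, -2.97 and -1.94, and over the alternatives it ran from -2.43 to -1.94. Among genes called lower in KO that fell in every batch, the next largest falls were those of *Flg2*, at -2.16, and *Sapcd2*, at -2.10.

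Other signals moved with the same contrast. Of 16 mitosis genes, 14 were lower in KO (median log2 fold change -1.28), and their summed level was 195, 192 and 740 CPM in KO and 563, 470 and 1305 CPM in WT. Of 9 fibroblast markers, *Col1a2* and *Col3a1*, both collagen chains, were lower in KO, with log2 fold changes of -0.55 (edgeR adjusted p = 0.0428) and -0.87 (adjusted p = 0.0269). The other 7 fibroblast markers did not pass. Of the 9, 7 had a negative log2 fold change and the rest a positive one, at a median of -0.38. Over all genes 1.95% were called lower. None of 5 melanocyte markers passed, and their median was 0.02. Their part in the falls of *Kif26b* and *Vangl1* was not tested.

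**Figure D2:**
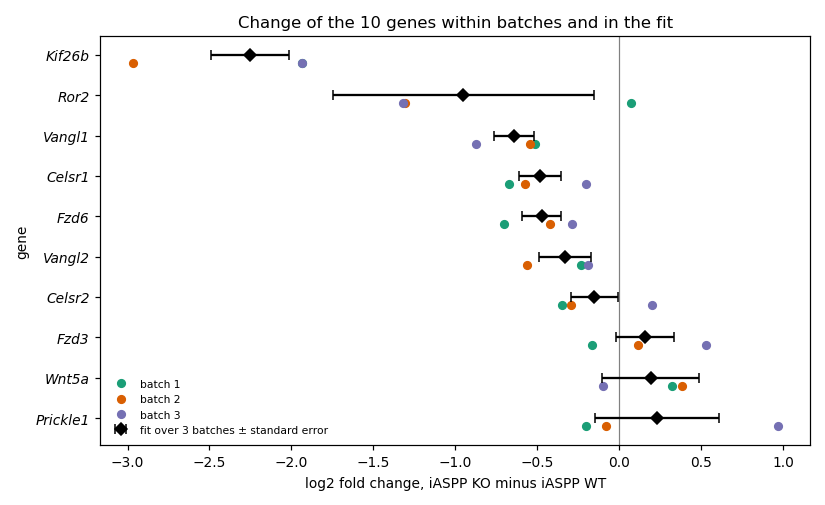
Log2 fold change of KO against WT for each gene, with the fit over 3 batches (diamond, bars are the standard error) and the difference within each batch (circles). *Kif26b* lies at -2.25, *Vangl1* at -0.65, and 5 genes have all 3 circles to the left of 0.

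Reads could be assigned to the members with little ambiguity. Stretches of 42 bases, the read length, that also occur in a transcript of another gene made up at most 0.539% of a member's sequence, in *Vangl1*, and none of it in *Ror2*, *Fzd6*, *Celsr1*, *Celsr2*, *Prickle1* and *Kif26b*. Exons of *Kif26b* share 909 bases with *Gm16564* on the opposite strand, which had 0 to 2 counts in the libraries under strand-specific counting. Opposite-strand overlaps also exist for *Wnt5a* (358 bases with *Gm2670*, 0 to 11 counts), *Fzd6* (152 bases with *Gm26704*, 4 to 56 counts) and *Vangl1* (8 bases with *Gm16160*, 0 to 18 counts).

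Between genes, levels are compared as CPM per kb of exon. In WT, *Fzd6* stood first at 69.2 ± 14.0 CPM per kb (SD, n = 3), 4.30-fold above *Vangl1* at 16.1 ± 3.34. *Celsr1* followed at 15.3 ± 5.65, *Celsr2* at 5.30 ± 1.99 and *Vangl2* at 4.25 ± 0.43 CPM per kb. *Kif26b* was 6th at 2.18 ± 0.86, ahead of *Fzd3* at 1.96 ± 0.62 and *Prickle1* at 0.93 ± 0.23 CPM per kb. Last of the 10 came *Wnt5a* at 0.75 ± 0.80 and *Ror2* at 0.39 ± 0.38 CPM per kb. Neighbours in this order had ranges that did not overlap only at the steps from *Fzd6* to *Vangl1*, from *Celsr1* to *Celsr2*, from *Vangl2* to *Kif26b* and from *Fzd3* to *Prickle1*. The ranges of all other neighbours overlapped. Of these pairs, only *Wnt5a* was above its lower neighbour in 3 of 3 WT libraries, at 1.70 to 2.01 times the level of *Ror2*. In KO, *Kif26b* was 9th, at 0.51 ± 0.32 CPM per kb, ahead of *Ror2* alone.

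**Figure D3:**
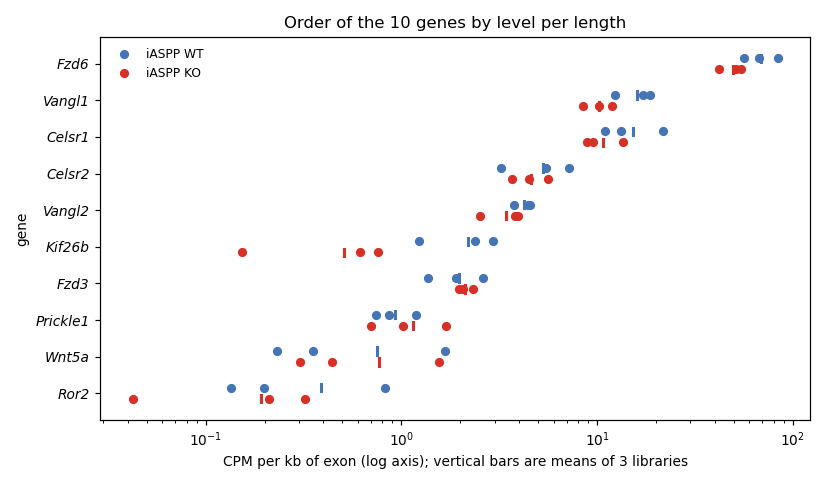
Level per kb of exon (log axis) of each gene in the 3 WT libraries (blue) and the 3 KO libraries (red), with bars at the means, in the order of the WT means. *Fzd6* leads at a WT mean of 69.2 CPM per kb, and *Kif26b* is the gene whose groups lie farthest apart.

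The ratios between paralogs are given as values and were not tested. The level of *Fzd6* per kb was 20.4 to 27.6 times that of *Fzd3* in KO and 29.6 to 48.9 times in WT, lower in KO in 3 of 3 batches. *Celsr1* stood at 1.99 to 2.59 times *Celsr2* in KO and 2.42 to 3.41 times in WT, again lower in KO in 3 of 3 batches, although the ranges overlapped. The ratio of *Vangl1* to *Vangl2* was lower in KO in 2 of 3 batches, at 2.58 to 3.34 in KO and 3.29 to 4.13 in WT.

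Differences between batches did not enter the choice of members and were tested in the same fit, as any difference among the 3 batches. *Wnt5a*, *Celsr1*, *Celsr2* and *Kif26b* passed, 4 of 10 members, against 15.8% of all genes. The pattern over the batches was not the same for all 4. *Wnt5a* was higher in batch 3 than in batch 1 by 2.02 on the log2 scale, with a log2 difference from batch 1 of -0.58 in batch 2 (edgeR adjusted p = 0.00159). *Kif26b* was low in batch 2, with a log2 difference from batch 1 of -1.68, and near batch 1 in batch 3, at -0.30 (edgeR adjusted p = 0.00738). The cadherins were highest in batch 1: *Celsr1* differed by -0.66 in batch 2 and -0.75 in batch 3 (adjusted p = 0.0121), and *Celsr2* by -0.36 and -0.88 (adjusted p = 0.0197). *Ror2* had log2 differences from batch 1 of -1.41 in batch 2 and 1.28 in batch 3 but did not pass (adjusted p = 0.182). No call held in every fit with a batch left out, which compares only the batches that remain. *Wnt5a* did not pass without batch 3 (edgeR adjusted p = 0.826), nor *Kif26b* without batch 2 (0.444). *Celsr1* did not pass without batch 1 (0.747), nor *Celsr2* without batch 1 or batch 3. Leaving out an outlying batch takes away the difference tested, so these losses are no separate evidence.

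Markers of other skin cells moved with the batches too. Of 9 fibroblast markers, 8 differed between batches, and *Col1a2* was higher in batch 3 than in batch 1 by 4.62 on the log2 scale, in the batch where *Wnt5a* was high. All 5 melanocyte markers differed between batches. From batch 1 their log2 differences ran from -1.57 to -1.14 in batch 2 and from -0.19 to 0.67 in batch 3, beside -1.68 and -0.30 for *Kif26b*. A low level in batch 2 was not limited to this list: the Wnt ligand *Wnt10b* had -1.48 and -0.57 (edgeR adjusted p = 0.0201). All 16 mitosis genes, 5 of 6 suprabasal markers and 4 of 7 basal keratinocyte markers also differed between batches, against 15.8% of all genes. Whether these cells or the cell cycle have a part in the batch differences of *Wnt5a* and *Kif26b* was not tested.

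**Figure D4:**
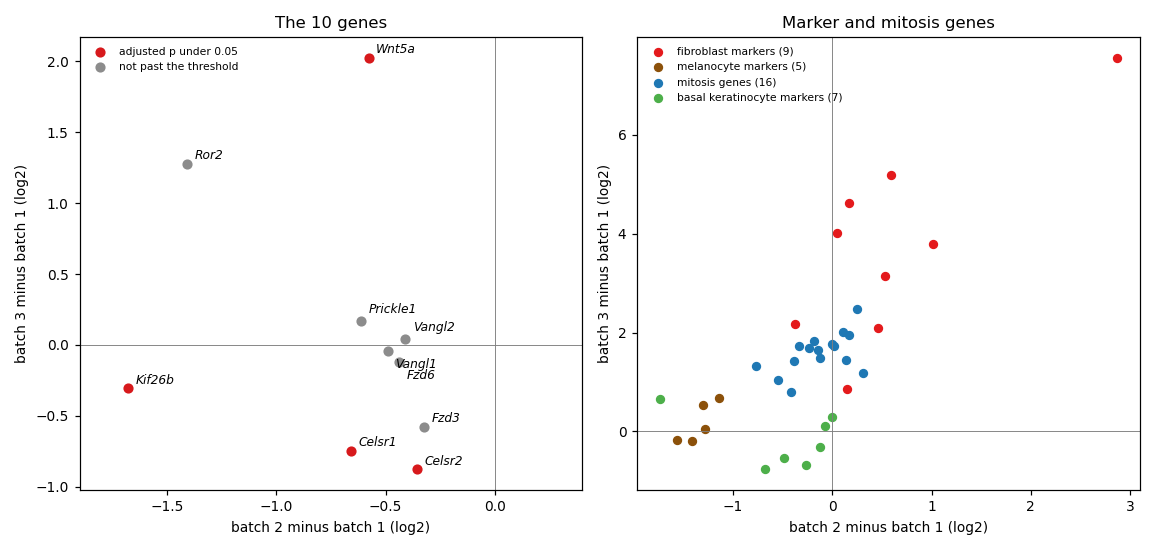
Log2 difference from batch 1 in batch 2 (horizontal) and in batch 3 (vertical) for the 10 genes (left, red where the adjusted p of the batch test is under 0.05) and for the tested fibroblast, melanocyte, mitosis and basal keratinocyte genes (right; the vertical scales differ). *Wnt5a* lies high at 2.02 in batch 3, *Kif26b* lies far left at -1.68, and the 5 melanocyte markers lie between -1.57 and -1.14 in batch 2.

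Of the remaining cell type lists, 2 held genes that passed. In the suprabasal list, *Sbsn*, a suprabasal secreted protein, was higher in KO (log2 fold change 0.67; edgeR adjusted p = 0.00864) and *Krt10*, a keratin of differentiating cells, was lower (-1.31; adjusted p = 0.0330), out of 6. The log2 differences of *Krt10* within batches 1, 2 and 3 were -2.01, -1.58 and -0.15. *Krt1*, of the same list, did not pass (-0.31; edgeR adjusted p = 0.345). *Csf1r*, a macrophage and Langerhans cell receptor, was higher in KO (1.11; edgeR adjusted p = 0.0206), 1 of 3 immune markers tested, against 2.17% of all genes. The other 2, *Lyz2* (0.60; adjusted p = 0.179) and *Ptprc* (0.16; 0.965), did not pass. *Csf1r* was lowest in batch 3, at 5.23 CPM in KO and 1.92 CPM in WT. *Lyz2* was highest there, at 59.1 CPM in KO and 49.6 CPM in WT. Among endothelial, Schwann cell, Merkel cell and hair follicle markers none of the 9 tested passed, and the muscle list had no member with enough counts. The summed levels of the endothelial, Schwann and Merkel lists were at most 13.0 CPM in any library.

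Other genes of the pathway were counted in the same test. Of 94 other planar polarity and Wnt genes in 7 lists, 71 had enough counts to be tested. In KO 1 was higher and 3 were lower, and 67 did not pass, at a median log2 fold change of -0.09. The percentages of all genes called were 2.17% higher and 1.95% lower. In either direction 4 of the 71 were called, beside 614 of all 14916 genes. Batches separated 21 of the 71, or 29.6%, against 15.8% of all genes.

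Among 12 other Wnt ligands, *Wnt7b*, an epidermal Wnt, was higher in KO. It gave 94.0, 102 and 48.9 CPM in KO and 67.7, 78.5 and 26.9 CPM in WT, with a log2 fold change of 0.57 ± 0.13 (SE, n = 3; edgeR adjusted p = 0.0435). *Wnt10b*, a ligand of the early hair follicle, was lower, at 9.09, 2.96 and 7.31 CPM in KO and 21.7, 8.29 and 12.2 CPM in WT (log2 fold change -1.15 ± 0.24; adjusted p = 0.0292). The groups overlapped for both genes, and KO and WT differed the same way in each batch. The call for *Wnt7b* was lost without batch 1 (adjusted p = 0.106) and without batch 2 (0.118), and that for *Wnt10b* likewise without batch 1 (0.185) and without batch 2 (0.138).

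Of 12 other receptors and coreceptors, 11 had a negative log2 fold change, with a median of -0.33, and 1 passed. Negative values made up 57.7% of the 71 other pathway genes and 49.4% of all genes tested. This was *Fzd7*, a Frizzled receptor, with 19.5, 13.0 and 25.1 CPM in KO and 34.2, 25.7 and 45.1 CPM in WT. All KO libraries were below all WT libraries, and the log2 fold change was -0.88 ± 0.15 (SE, n = 3; edgeR adjusted p = 0.0133). *Apcdd1*, a membrane-bound inhibitor of Wnt signalling, was the 1 of 8 beta-catenin targets and feedback genes to pass. Its level was 25.0, 13.7 and 51.0 CPM in KO and 36.5, 29.8 and 111 CPM in WT, highest in batch 3, with a log2 fold change of -0.93 ± 0.16 (SE, n = 3; edgeR adjusted p = 0.0115). Without batch 2 neither *Fzd7* (adjusted p = 0.0777) nor *Apcdd1* (0.0656) passed. Without the batch term none of these 4 genes did (adjusted p = 0.973 to 0.977).

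No member of the 4 other lists passed. Among 10 other core polarity genes the most abundant were *Ptk7*, a kinase-like receptor, at -0.13 ± 0.13 (log2 fold change, SE; edgeR adjusted p = 0.696), and *Dvl1*, a Dishevelled scaffold, at 0.07 ± 0.11 (0.819). Among 5 Fat and Dachsous cadherins these were *Fat1* at 0.07 ± 0.12 and *Fat2* at -0.09 ± 0.12, and *Fat1* had a log2 difference of -1.75 between batch 3 and batch 1. The 18 polarity effectors were led by the small GTPase *Cdc42* at 0.06 ± 0.11 and the ubiquitin ligase *Smurf1* at 0.13 ± 0.14. In the list of 6 tested genes of Wnt secretion and secreted modulators, *Wls*, which carries Wnt proteins to the cell surface, was at -0.23 ± 0.12 (adjusted p = 0.364), and *Porcn*, which attaches their lipid, at 0.24 ± 0.21 (0.651).

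**Figure D5:**
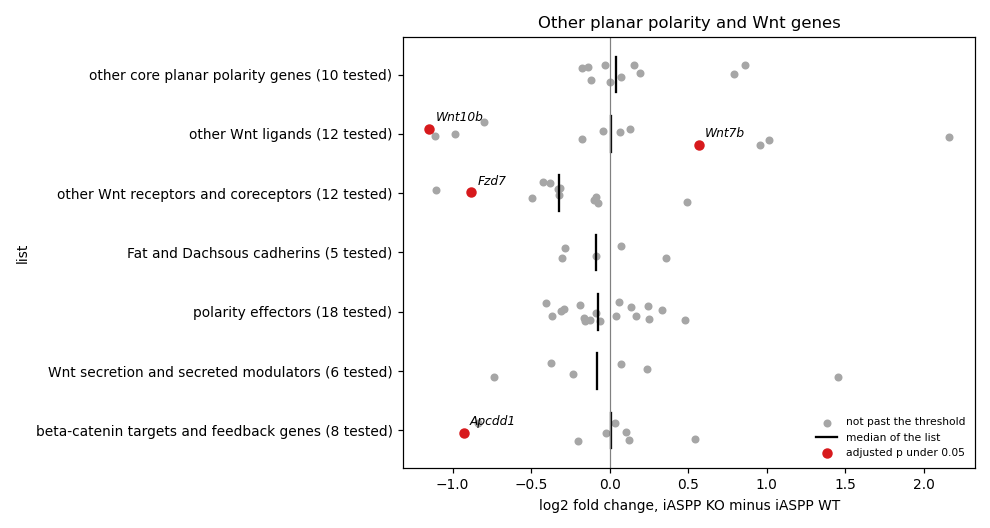
Log2 fold change of KO against WT for the tested genes of the 7 other pathway lists (points, red where the adjusted p is under 0.05), with a bar at each list's median; the vertical scatter within a list carries no value. The 4 red points are *Wnt10b*, *Wnt7b*, *Fzd7* and *Apcdd1*, and the receptor list has the lowest median, at -0.33.

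The genes whose log2 CPM followed *Kif26b* most closely across the 6 libraries were *Lgi2* (Pearson r = 0.996), *Tent5a* (0.991), *Adamts1* (0.990), *Dzip1l* (0.987) and *Csrp1* (0.984). Since the libraries share batch and condition, these values describe both at once. *Kif26b* was chosen for its fall in KO in these same libraries, so genes lower in KO are favoured in this order. Of the members, *Vangl1* had r = 0.948 (position 53 of 14915 genes), *Vangl2* 0.936 (position 86) and *Fzd6* 0.931 (position 101). *Celsr1* and *Ror2* followed at 0.713 and 0.701, while *Prickle1*, *Wnt5a*, *Celsr2* and *Fzd3* had values of 0.21, 0.21, 0.21 and -0.12. *Adamts1*, an extracellular metalloprotease, was at 261, 130 and 242 CPM in KO and 466, 297 and 492 CPM in WT, low in batch 2 and lower in KO as *Kif26b* was. The 5 melanocyte markers had r of 0.417 to 0.616.

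RefSeq windows of 250 bases before to 50 bases after the transcription start (GRCm38.p6) were at hand for 5 members, *Kif26b*, *Ror2*, *Vangl2*, *Celsr2* and *Prickle1*, the last with 2 starts. They were searched on both strands for the AP1 heptamer TGANTCA and for a p53 family half-site, since iASPP is studied as a partner of p63 and AP1. The heptamer was found once, in *Ror2*, 90 bases before the start, and 7.81% of 32851 mouse windows hold it. The half-site was found once, in *Kif26b*, as AGGCAAGTTC from 22 bases after the start, and 8.36% of windows hold it. A match is a run of letters and not evidence of binding. The 250 bases before the start are printed for *Ror2* and for *Kif26b*, the member with the largest fall, with the heptamer in capitals. *Kif26b* is read on the plus strand (chr1:178528875-178529124) and *Ror2* on the minus strand (chr13:53286125-53286374), each 5′ to 3′.
Kif26b: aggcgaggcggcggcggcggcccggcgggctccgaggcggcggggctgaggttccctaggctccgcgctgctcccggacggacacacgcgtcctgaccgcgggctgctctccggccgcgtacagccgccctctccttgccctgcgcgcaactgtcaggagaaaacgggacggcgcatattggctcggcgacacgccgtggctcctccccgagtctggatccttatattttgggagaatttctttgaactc
Ror2: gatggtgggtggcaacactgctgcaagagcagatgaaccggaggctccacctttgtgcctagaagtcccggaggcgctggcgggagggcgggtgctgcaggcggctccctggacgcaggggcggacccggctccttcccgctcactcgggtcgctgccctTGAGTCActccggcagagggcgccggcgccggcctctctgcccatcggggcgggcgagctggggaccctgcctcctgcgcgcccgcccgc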

How the data were processed

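The authors trimmed 42-nt single reads from ribosome-depleted RNA with cutadapt 2.10, aligned them to GRCm38 (mm10) with STAR 2.7.3 (tools and versions per the labels) and GENCODE vM25 genes, and deposited whole-number read counts per gene name from featureCounts 2.0.0, taken by strand over exons, without normalization. A deposited table of the authors' own DESeq2 comparison (fold changes and p-values) was not used. Groups and batches come from the labels.

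The members and lists were chosen with earlier results of these data known. The counts were filtered with filterByExpr, scaled by TMM (factors 0.916 to 1.11) and tested with edgeR 4.0.16 in R 4.3.3 by the quasi-likelihood test (common dispersion 0.0627), with batch and condition as terms, Benjamini-Hochberg adjustment over 14916 genes and a threshold of 0.05. CPM are TMM-scaled. Within-batch differences and correlations use log2 CPM with a prior count of 2, and CPM per kb uses the count table's exon length. The library totals limit precision to counting error at best, since molecules were not tagged before PCR. Cultures of one group differed far beyond sampling noise (chi-square per gene 35.4 to 147), so none was taken for a repeat.

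Batch is the block: deviations of same-numbered KO and WT cultures correlated at 0.302, 0.368 and 0.568, and the labels give the batch. Named genes were all members, *Ppp1r13l* and the 5 genes most like *Kif26b*. Of each wider list, up to 4 called genes were named, or else its 2 most abundant. From the mitosis, basal and uncalled marker lists only counts and sums are given. *Flg2*, *Sapcd2*, *Ror1*, *Krt1*, *Lyz2* and *Ptprc* were named after their values were seen. Shared stretches of 42 bases were counted in GENCODE vM21 transcripts, and promoter windows are RefSeq's. The steps were tested on simulated data. Alternatives were no batch term, DESeq2 1.42.0, DESeq2 size factors, upper-quartile scaling, 2 other filters, robust dispersion and each batch left out; the longest GENCODE vM21 transcript as length was added after seeing the data. Tables and figures used Python 3.11.15, pandas 2.3.3, numpy 2.4.6 and matplotlib 3.10.9.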

Additional observations from a re-analysis of the deposited data

How the results depend on the processing

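Without the replicate block 0 genes were called higher and 0 lower in KO (edgeR; 691 at an unadjusted p under 0.05), hence 0 members and 0 other pathway genes. With no filter beyond 1 count, 624 genes were higher and 491 lower, against 323 and 291 as reported. Leaving out each batch in turn gave 169 to 793 higher and 117 to 662 lower, with most calls without batch 3. Members lower in KO, *Kif26b* included, numbered 4 with DESeq2, with no filter, with at least 10 counts in every library and with robust dispersion, against 2, and 1 to 4 with a batch left out. Other pathway genes higher in KO numbered 2 with DESeq2, with at least 10 counts and with robust dispersion, 4 with no filter and 0 to 4 with a batch left out, against 1. Those lower numbered 0 to 8 with a batch left out, against 3. Members differing between batches numbered 2 to 4 with a batch left out, against 4, and all genes differing between batches 689 to 2644, against 2354. The sign turned only without batch 3, for *Fzd3* (-0.029 to 0.32 with a batch left out) and *Prickle1* (-0.15 to 0.46). The causes of these shifts were not tested.

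The other 47 comparisons of a count stayed within 1.5 times its reported value. The order of WT levels was the same with the longest transcript as length. RefSeq lengths in place of exon lengths were not run. *Ror2* had the fewest counts of the members, 4 to 79 per library, and so the largest counting error.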
